A study of Mus musculus with 6 samples.

Results

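The 36 genes described here encode enzymes and regulators that make fatty acids, triglycerides and cholesterol, and they were measured in tibialis anterior, a mixed limb muscle of the mouse. They were taken by name from the 19938 genes that the array measures with a probe set carrying a single gene symbol. A probe set is the group of short array probes that together report 1 transcript. For the 4 members with several probe sets, the one with the highest mean over the 6 arrays stood for the gene. All 36 were found and tested, with no filter on low values.

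Of the 6 arrays, 3 came from control C57Bl6J mice and 3 from mice of the same strain with a transgene named MLC-SOCS-3. SOCS-3, a suppressor of cytokine signalling, inhibits JAK-STAT and insulin receptor signalling inside the cell. Mice of both groups were 11 weeks old and had been starved for 6 h, and RNA from the frozen whole muscle was used. The labels do not explain the prefix MLC, do not name the promoter of the transgene, and do not say whether each array holds RNA of a separate animal, so a p-value here reflects the variation among these arrays, part of which may be technical.

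Values are log2 intensities, 1 per gene and array, and a difference of 1 is a doubling. Brightness depends on the probes as well as on the transcript, so the level of one gene was not read as more or less transcript than that of another. Levels are set only beside the median probe set of the array, at 5.99. Socs3 itself read 7.37, 7.41 and 7.43 on the control arrays and 7.07, 7.12 and 7.25 on the arrays labelled MLC-SOCS-3. It was thus lower there without overlap, as were 7.76% of all genes. The difference, MLC-SOCS-3 minus control, was -0.26 ± 0.072 (SE, limma adjusted p = 0.80). Its other probe set gave -0.22 ± 0.079 (SE, limma adjusted p = 0.82), also without overlap. Whether the Socs3 probes lie within the transgene is not given in the sources used here, and directions are therefore given for the arrays as labelled. The 8 skeletal muscle markers had means between 12.87 and 14.59, with differences between -0.037 and 0.033.

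Lipogenesis builds palmitate from acetyl-CoA. Desaturases and elongases then shape the fatty acid, and acyltransferases attach it to glycerol to form triglyceride. Cholesterol is built from the same acetyl-CoA through mevalonate and squalene. SREBP transcription factors switch on both branches: SREBP-1, from Srebf1, is tied mainly to fatty acid genes and to insulin, and SREBP-2, from Srebf2, mainly to sterol genes. The carbohydrate-sensing factors encoded by Mlxipl and Mlxip act beside them. Skeletal muscle makes less fat than liver or adipose tissue, and its Srebf1 transcript is known to respond to insulin and feeding.

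None of the 36 genes passed the test between the groups. In limma's moderated linear model over all 35557 probe sets, 0 members had an adjusted p under 0.05 (Benjamini-Hochberg), as had 0% of all probe sets. At an unadjusted p under 0.05 there were 2 members, Scd1 and Srebf1, against 4.86% of all genes (5.92% of all probe sets), so the members' share was near that of all genes. The members' median difference, MLC-SOCS-3 minus control, was 0.022, with 22 positive and 14 negative, beside a median of -0.016 and 43.8% positive over all genes. With each array centred on its median, these medians were 0.041 for the members and 0.0035 for all genes. Of the 36 members, 34 lay above the median probe set. The 11409 genes above it had, on the deposited values, a median of 0.0011 and 50.5% positive.

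The groups did not overlap for 3 members. For Scd1 and Elovl1, every MLC-SOCS-3 array lay above every control, while 4.52% of all genes were separated in this direction. For Srebf1 every MLC-SOCS-3 array lay below every control, as for 7.76% of all genes. For the other 33 members the ranges of the groups overlapped.

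**Figure D1:**
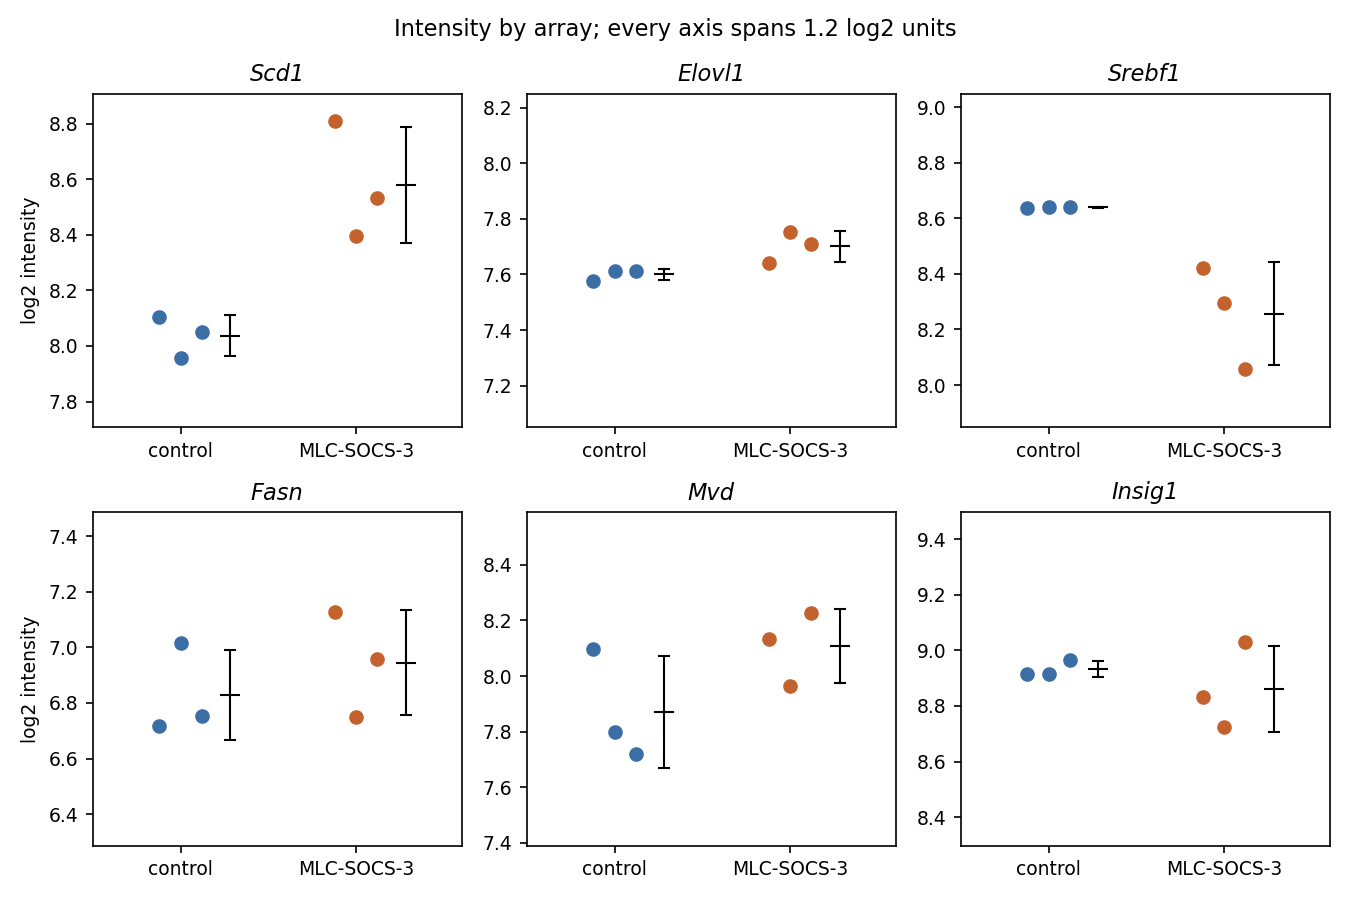
Log2 intensity of 6 genes on each array, controls in blue and MLC-SOCS-3 in orange, with the group mean and SD (n = 3) as a bar beside the points. Scd1, Elovl1 and Srebf1 are the genes whose groups do not overlap, and Fasn, Mvd and Insig1 show groups that do.

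Scd1, the stearoyl-CoA desaturase that makes oleate and palmitoleate from saturated fatty acids, had the largest difference of the 36 genes. It read 8.10, 7.96 and 8.05 on the control arrays and 8.81, 8.40 and 8.53 on the arrays labelled MLC-SOCS-3. The lowest of the latter lay above the highest control, and the spread was wider in the MLC-SOCS-3 group, with an SD of 0.21 (n = 3) against 0.074 (n = 3). The difference was 0.54 ± 0.12 (SE, 95% interval 0.25 to 0.83), a 1.46-fold higher intensity. Its unadjusted limma p of 0.0037 ranked 68th among the 19938 genes, and its difference ranked 27th from the top. The adjusted p in limma was 0.73, so the difference did not pass.

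The other desaturases had differences near 0 and overlapping groups. Scd2, a second stearoyl-CoA desaturase whose gene lies with Scd1 on chromosome 19, read 7.62, 7.43 and 7.16 in controls and 7.16, 7.41 and 7.35 on the MLC-SOCS-3 arrays. Its difference was -0.092 (95% interval -0.43 to 0.24), with control replicate 1 highest and an overlap of the groups. The remaining members of that cluster, Scd3 and Scd4, lay below the median probe set, at 4.81 and 4.73, with differences of -0.11 and 0.0054. Transcripts of the Scd genes are alike in sequence, and whether the probes of Scd1 detect only Scd1 could not be inspected in summarised values.

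Fads1 and Fads2 encode the desaturases of polyunsaturated fatty acids. Fads1 read between 7.28 and 7.31 in controls and between 7.31 and 7.40 on the MLC-SOCS-3 arrays, a difference of 0.047 ± 0.061 (SE). Fads2 differed by -0.039 ± 0.17 (SE). It had the widest spread of any member within a group, from 6.52 on MLC-SOCS-3 replicate 1 through 6.97 to 7.20 on replicate 3.

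The elongases add carbons to existing fatty acids. Elovl1, which acts on very long saturated and monounsaturated chains, read 7.58, 7.61 and 7.61 in controls and 7.64, 7.75 and 7.71 on the MLC-SOCS-3 arrays. The groups did not overlap, but the gap between the nearest arrays was narrow and the difference was 0.10 ± 0.063 (SE, 95% interval -0.052 to 0.25), with a limma adjusted p of 0.86. Elovl5, an elongase of polyunsaturated chains, differed by 0.096 ± 0.10 (SE). Elovl6, which turns palmitate to stearate, the substrate of Scd1, was 1 of the 2 members below the median probe set. It differed by 0.014 ± 0.17 (SE), and its controls alone ran from 5.33 to 5.86.

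The steps that supply and build palmitate had overlapping groups throughout. Of the 6 genes, 3 had positive and 3 negative differences, with a median of 0.018. Fasn, the fatty acid synthase, read 6.72, 7.02 and 6.75 in controls and 7.13, 6.75 and 6.96 on the MLC-SOCS-3 arrays. High and low arrays occurred in both groups, and the difference was 0.12 ± 0.13 (SE, 95% interval -0.20 to 0.43). Acly, which splits citrate into acetyl-CoA, was more even, with a difference of -0.036 ± 0.063 (SE) and all arrays between 7.27 and 7.41.

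Acaca and Acacb encode the acetyl-CoA carboxylases that make malonyl-CoA, the first for synthesis and the second at the mitochondrial surface, where malonyl-CoA restrains fatty acid oxidation. Acacb, the form known from muscle, read 10.92, 10.93 and 10.82 in controls and 11.04, 10.87 and 10.88 on the MLC-SOCS-3 arrays, a difference of 0.040 ± 0.078 (SE). Acaca differed by 0.12 ± 0.10 (SE) on its brighter probe set and by -0.15 ± 0.15 (SE) on its other one. The probe sets of this gene thus disagreed in sign, and the 95% interval of each crossed 0.

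Me1, the malic enzyme that provides NADPH, hardly varied between arrays. It read 11.82, 11.84 and 11.85 in controls and 11.84, 11.83 and 11.75 on the MLC-SOCS-3 arrays. Its difference was -0.030 ± 0.061 (SE), and its other probe set gave 0.013 ± 0.068 (SE). Thrsp, a small protein that promotes lipogenesis and is abundant in fat and liver, was at -0.0037 ± 0.092 (SE), with arrays from 7.53 to 7.81 in controls and from 7.62 to 7.74 in the other group.

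**Figure D2:**
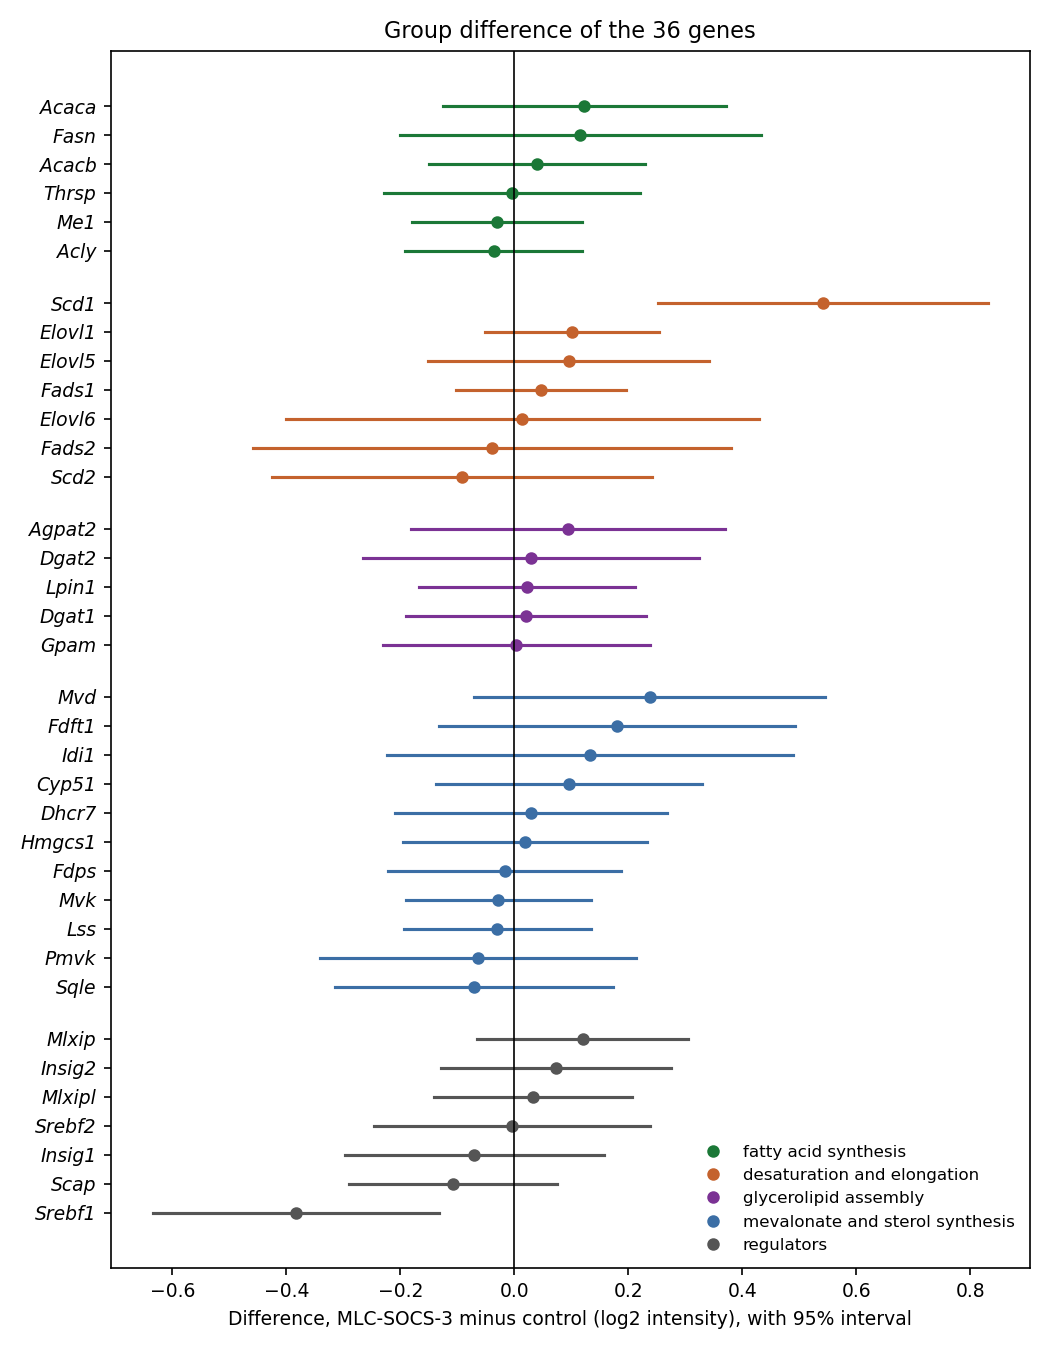
Difference of each of the 36 genes (MLC-SOCS-3 minus control, log2 intensity, n = 3 and 3) with its 95% interval from limma, grouped and coloured by step of the pathway. The intervals of Scd1 and Srebf1 lie off 0 on opposite sides, and those of the other 34 genes cross it. The intervals are not adjusted for the number of genes.

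The genes that assemble triglyceride had the narrowest range of the 5 steps, with all 5 differences between 0.0035 and 0.094. Gpam, the mitochondrial enzyme that attaches the first fatty acid to glycerol phosphate, was at 0.0035 ± 0.096 (SE). Agpat2, which attaches the second, was at 0.094 ± 0.11 (SE), with its highest value of 7.81 on MLC-SOCS-3 replicate 1 and its lowest, 7.40, on replicate 3 of the same group. Lpin1, the phosphatidate phosphatase that is also a coregulator of metabolic genes in muscle, read 11.93, 12.03 and 11.82 in controls and 11.98, 11.89 and 11.97 on the MLC-SOCS-3 arrays. The MLC-SOCS-3 arrays lay within the range of the controls, and the difference was 0.023 ± 0.078 (SE). Dgat1 and Dgat2, unrelated enzymes that both add the last fatty acid, were at 0.020 ± 0.086 and 0.029 ± 0.12 (SE). Their 95% intervals ran from -0.19 to 0.23 and from -0.26 to 0.32.

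No shift of the sterol pathway as a whole was seen. Of its 11 genes, 6 had positive and 5 negative differences, with a median of 0.019. With all 6 arrays, none had groups without overlap or an unadjusted p under 0.05. Averaged over the 11 genes, the deviation from each gene's 6-array mean was -0.015, -0.086 and 0.034 on the control arrays and 0.0093, -0.0046 and 0.061 on the MLC-SOCS-3 arrays. Control replicates 2 and 3 thus lay further apart than the means of the groups, which were -0.022 and 0.022.

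Hmgcs1 makes the HMG-CoA from which mevalonate is formed, and it is a classic SREBP target. Its promoter window is shown because it was the only window among the sterol enzymes found in the table that holds the shorter SREBP letters searched. It is printed 5′ to 3′ from RefSeq, build GRCm38.p6, from 250 bases before to 50 bases after the start of the gene. Capitals mark the shorter SREBP site TCACNCCAC, the NF-Y box CCAAT and the Sp1 box GGGCGG on either strand.
Hmgcs1 window at chr13:119690101-119690400, plus strand: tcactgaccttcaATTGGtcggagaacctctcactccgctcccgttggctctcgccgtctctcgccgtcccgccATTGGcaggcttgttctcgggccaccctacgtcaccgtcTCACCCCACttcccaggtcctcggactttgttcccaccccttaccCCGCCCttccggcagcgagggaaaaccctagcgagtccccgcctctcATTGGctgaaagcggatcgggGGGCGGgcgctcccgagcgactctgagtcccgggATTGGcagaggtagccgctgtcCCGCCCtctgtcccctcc
Its intensity was 9.41, 9.24 and 9.36 in controls and 9.23, 9.38 and 9.46 on the MLC-SOCS-3 arrays. The difference was 0.019 ± 0.088 (SE, 95% interval -0.19 to 0.23), and each group held values on both sides of the other's median.

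Among the kinases and the decarboxylase that follow, Mvk and Pmvk, which phosphorylate mevalonate in turn, were at -0.028 ± 0.066 and -0.064 ± 0.11 (SE). Mvd, which makes isopentenyl diphosphate, had the largest difference of the sterol branch. It read 8.10, 7.80 and 7.72 in controls and 8.13, 7.96 and 8.23 on the MLC-SOCS-3 arrays. Control replicate 1 lay within the range of the other group. The difference was 0.24 ± 0.13 (SE, 95% interval -0.070 to 0.55), with an unadjusted limma p of 0.11 and an adjusted p of 0.86. With 1 array left out at a time the difference lay between 0.16 and 0.35. The groups did not overlap without control replicate 1, where the unadjusted limma p was 0.020 and the adjusted p 0.98, or without MLC-SOCS-3 replicate 2, where the unadjusted p was 0.072 and the adjusted p 0.93.

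Idi1 isomerises isopentenyl diphosphate, and Fdps joins such units to farnesyl diphosphate. Idi1 was at 0.13 ± 0.15 (SE) with its other probe set at 0.11 ± 0.13 (SE), and Fdps at -0.017 ± 0.084 (SE). Fdft1, squalene synthase, commits the pathway to sterols. It read 10.70, 10.96 and 10.94 in controls and 11.26, 10.99 and 10.88 on the MLC-SOCS-3 arrays. The lowest and highest values were control replicate 1 and MLC-SOCS-3 replicate 1, and the other 4 arrays lay between 10.88 and 10.99. The difference was 0.18 ± 0.13 (SE), and the second Fdft1 probe set gave 0.19 ± 0.12 (SE).

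The later enzymes had differences no larger than their SE. Sqle, the squalene epoxidase, lay below the median probe set and differed by -0.071 ± 0.10 (SE). Lss, which folds the epoxide into lanosterol, lay just above the median probe set and differed by -0.030 ± 0.067 (SE). Cyp51, the lanosterol demethylase, was at 0.095 ± 0.096 (SE), and Dhcr7, which makes cholesterol from its last precursor, at 0.029 ± 0.098 (SE).

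**Figure D3:**
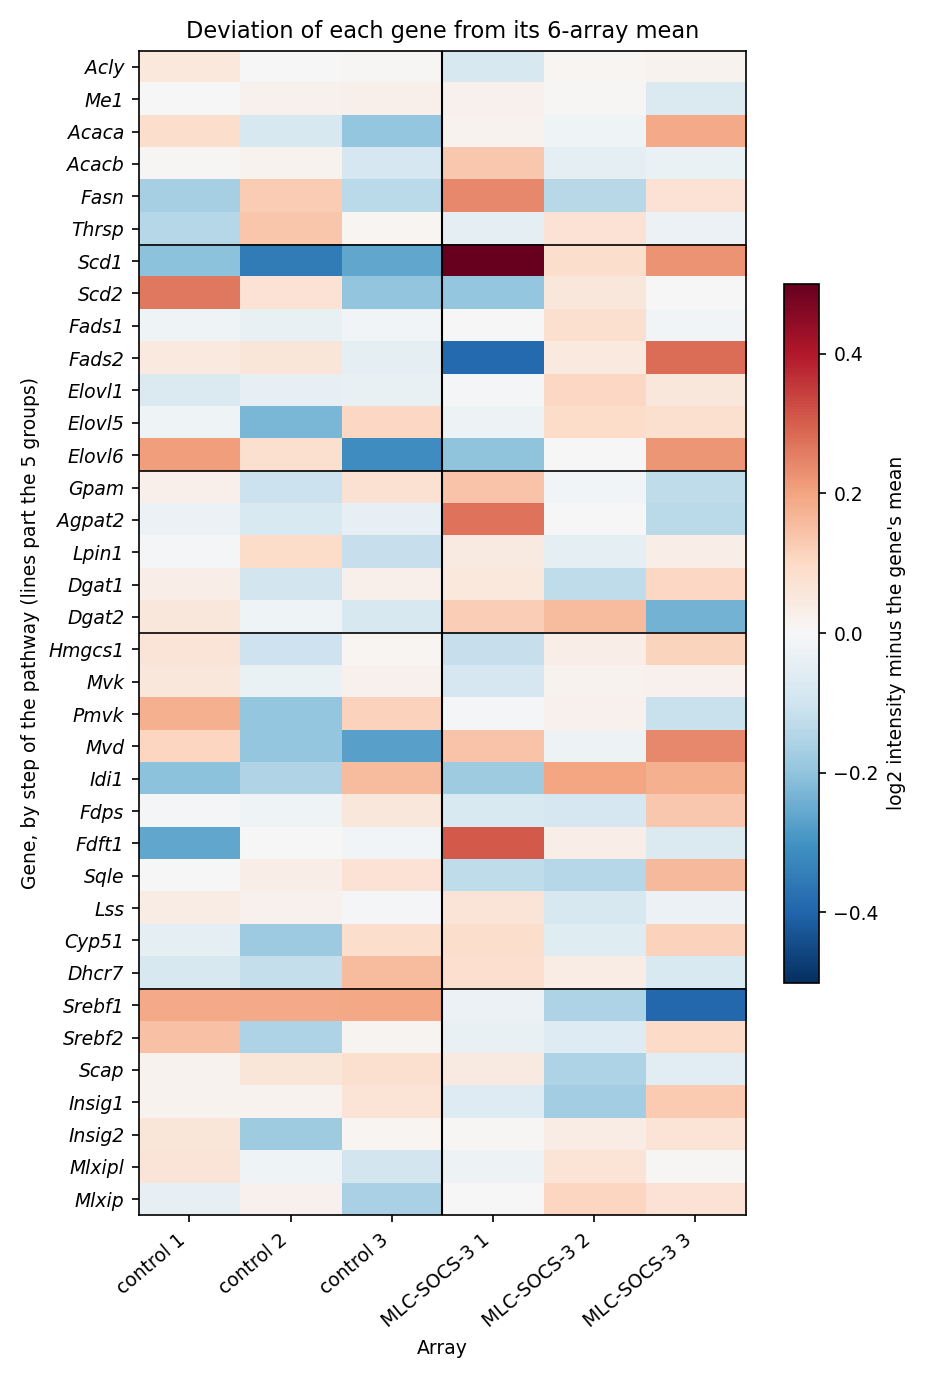
Log2 intensity of each of the 36 genes (rows) on each of the 6 arrays (columns), as the deviation from the gene's mean over the arrays, red above and blue below. Horizontal lines part the 5 steps of the pathway and the vertical line parts the groups. Scd1 and Srebf1 are the rows whose colour changes most at the vertical line, and no step changes colour as a block.

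Srebf1 stood out among the regulators. It read 8.64 on each of the 3 control arrays, with an SD of 0.0019 (n = 3), and 8.42, 8.29 and 8.06 on the arrays labelled MLC-SOCS-3, with an SD of 0.18 (n = 3). All 3 of the latter lay below the controls, and they differed among themselves by nearly as much as their mean differed from that of the controls. The difference was -0.38 ± 0.10 (SE, 95% interval -0.63 to -0.13), a 1.30-fold lower intensity. Its unadjusted limma p of 0.0097 ranked 160th among 19938 genes, its difference ranked 180th from the bottom, and its adjusted p was 0.80. Scd1, a known target of SREBP-1, was thus the member with the highest difference, and Srebf1 the one with the lowest.

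Srebf1 is transcribed from several start sites, and this array summarises the gene in 1 probe set, which cannot tell them apart. The 3 start windows that RefSeq (GRCm38.p6) gives for the gene are shown for that reason, each from 250 bases before to 50 bases after the start, 5′ to 3′. Capitals mark the NF-Y box CCAAT and the Sp1 box GGGCGG on either strand, the only motifs searched that these windows hold.
Srebf1 window at chr11:60222532-60222831, minus strand: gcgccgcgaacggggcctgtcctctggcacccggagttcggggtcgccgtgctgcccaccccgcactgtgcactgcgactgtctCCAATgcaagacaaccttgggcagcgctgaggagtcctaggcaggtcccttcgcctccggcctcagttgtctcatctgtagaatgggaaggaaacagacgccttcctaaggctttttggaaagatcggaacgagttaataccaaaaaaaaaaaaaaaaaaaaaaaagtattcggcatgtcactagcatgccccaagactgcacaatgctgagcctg
Srebf1 window at chr11:60220578-60220877, minus strand: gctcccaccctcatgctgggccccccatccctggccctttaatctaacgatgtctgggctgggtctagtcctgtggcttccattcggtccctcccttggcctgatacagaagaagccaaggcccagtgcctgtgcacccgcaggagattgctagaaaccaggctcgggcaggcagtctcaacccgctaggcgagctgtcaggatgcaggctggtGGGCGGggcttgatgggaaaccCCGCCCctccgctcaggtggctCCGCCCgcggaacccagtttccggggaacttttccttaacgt
Srebf1 window at chr11:60210422-60210721, minus strand: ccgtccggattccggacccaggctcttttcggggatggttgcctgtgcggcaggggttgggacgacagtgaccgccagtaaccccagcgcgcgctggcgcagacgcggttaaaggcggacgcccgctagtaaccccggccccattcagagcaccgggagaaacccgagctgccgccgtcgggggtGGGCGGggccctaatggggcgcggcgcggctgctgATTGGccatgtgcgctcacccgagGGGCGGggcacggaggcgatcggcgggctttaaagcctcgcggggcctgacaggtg
The first window holds 1 NF-Y box, the second 3 Sp1 boxes and the third 1 NF-Y box and 2 Sp1 boxes. The matches are letters in these windows and were not tested as binding sites.

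Promoter windows were given for 28 of the 36 members. The shorter SREBP site TCACNCCAC was in 2 of them, Hmgcs1 and Mlxipl, against 1.44% of all genes of the table. The longer SREBP site, the same letters after an A, was in 0 of them and in 0.270% of all genes. The E-box CACGTG was in 5 of 28 (8.09% of all genes), the NF-Y box in 22 (41.1%) and the Sp1 box in 20 (38.2%). Both strands were searched, and a gene counted once if any of its windows held the letters.

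The other regulators had overlapping groups. Srebf2 was at -0.0043 ± 0.099 (SE, 95% interval -0.25 to 0.24), with controls from 7.63 to 7.94 and the other group from 7.72 to 7.89. Scap escorts SREBP precursors to the Golgi, where they are cleaved. It read 8.47, 8.51 and 8.53 in controls and 8.50, 8.30 and 8.40 on the MLC-SOCS-3 arrays, a difference of -0.11 ± 0.075 (SE).

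Insig1 and Insig2 hold Scap in the endoplasmic reticulum. Insig1, itself an SREBP target, read 8.91, 8.92 and 8.97 in controls and 8.83, 8.72 and 9.03 on the MLC-SOCS-3 arrays. MLC-SOCS-3 replicate 3 was its highest array and replicate 2 its lowest, and the difference was -0.070 ± 0.093 (SE). Insig2 read 10.37, 10.13 and 10.32 in controls and 10.32, 10.35 and 10.38 on the MLC-SOCS-3 arrays, with a low control replicate 2 and a difference of 0.073 ± 0.083 (SE).

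Mlxipl, which encodes ChREBP, was at 0.033 ± 0.071 (SE), with controls from 9.08 to 9.24 and the other group from 9.15 to 9.24. Its relative Mlxip, the form best known from muscle, read 8.63, 8.70 and 8.51 in controls and 8.67, 8.78 and 8.75 on the MLC-SOCS-3 arrays. The difference of 0.12 ± 0.076 (SE) had an adjusted limma p of 0.86. As a step, the 7 regulators had 3 positive and 4 negative differences, with a median of -0.0043. Their mean deviation was 0.065, -0.0091 and 0.017 on the control arrays and -0.015, -0.048 and -0.0095 on the MLC-SOCS-3 arrays, so the groups of this mean did not overlap, with control replicate 2 and MLC-SOCS-3 replicate 3 all but level. Without Srebf1 it was 0.044, -0.042 and -0.013 on the control arrays and -0.013, -0.030 and 0.054 on the MLC-SOCS-3 arrays, and the groups overlapped.

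The intervals bound what these 6 arrays leave room for. For 34 of the 36 genes the 95% interval lay within a 1.5-fold change in either direction, the exceptions being Scd1 and Srebf1. The same held for 92.2% of all genes and for 95.9% of the 11409 genes above the median probe set, among which 34 members lie. A difference past 0.2 in either direction was measured for 3 members, Scd1, Srebf1 and Mvd, which is 8.33%, against 11.7% of all genes and 6.92% of those above the median probe set. These bounds are on the deposited scale, where summarising compresses folds of weak probe sets.

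None of the further genes of these pathways passed the test either. Of 27 other lipogenic genes, 25 were measured, with 10 positive and 15 negative differences, a median of -0.017, and 0 called by limma in either direction, beside 1 at an unadjusted p under 0.05. Elovl7, an elongase below the median probe set, was at -0.21 ± 0.075 (SE) and had no overlap. Agpat3, an acyltransferase of phospholipid and triglyceride synthesis, was at 0.13 ± 0.067 (SE), also without overlap. Gpat3, which like Gpam starts glycerolipid assembly, was at 0.17 ± 0.10 (SE). Elovl4, an elongase of very long chains, was at -0.20 ± 0.12 (SE).

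Of 16 other sterol genes, 11 were measured, with 4 positive and 7 negative differences, a median of -0.030, and 0 called in either direction, beside 1 at an unadjusted limma p under 0.05. That gene, Stard4, a cholesterol carrier induced by SREBP-2, read 6.65, 6.70 and 6.80 in controls and 6.49, 6.56 and 6.47 on the MLC-SOCS-3 arrays. Its groups did not overlap, the difference was -0.21 ± 0.070 (SE), and its adjusted p was 0.81. Ebp, a sterol isomerase, was at -0.093 ± 0.082 (SE). Mbtps1, the protease that first cleaves SREBP, was at 0.062 ± 0.068 (SE) and Sc5d, a sterol desaturase, at 0.048 ± 0.060 (SE).

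Scd1, Fasn, Acly, Thrsp, Agpat2 and Dgat2 are among the members that fat cells also express strongly, and whole muscle can hold fat cells. A change in the number of cells of a type and a change in RNA per cell cannot be told apart in such samples. Of 12 measured adipocyte markers, 9 had positive differences. Their mean deviation was between -0.11 and -0.031 on the control arrays and between 0.0098 and 0.086 on the MLC-SOCS-3 arrays, without overlap. Adipoq, which encodes adiponectin, read 5.28, 5.34 and 5.25 in controls and 6.04, 5.99 and 5.74 on the MLC-SOCS-3 arrays, a difference of 0.64 ± 0.098 (SE, limma adjusted p = 0.69). Of the 12 markers taken singly, 2 had groups without overlap, both higher in MLC-SOCS-3 (4.52% of all genes), and 10 overlapped. Adipoq had the largest difference of the 12, and the mean deviation was not computed without it. The lack of overlap in this mean therefore holds with Adipoq included and is not a result for the other markers. The part of fat cells in the Scd1 value was not tested.

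The fat-cell markers were uneven. Plin1, a lipid droplet coat protein, was at 0.21 ± 0.098 (SE), Lep, the leptin gene, at 0.26 ± 0.13 and Retn, the resistin gene, at 0.16 ± 0.083. Adipoq, Plin1, Lep and Cidea lay below the median probe set, and Cidea, a droplet protein of brown fat, was at -0.25 ± 0.15 (SE). Fabp4, at 0.091 ± 0.081 (SE), and Cd36, at -0.026 ± 0.058 (SE), are fatty acid carriers that muscle tissue holds as well. Among the lipogenic genes named above as shared with fat cells, Scd1 was at 0.54 and Fasn at 0.12. Agpat2 was at 0.094, Dgat2 at 0.029, Acly at -0.036 and Thrsp at -0.0037. All of these but Scd1 differed by less than their SE. They were named after their values were seen and are not a full list of members that fat cells express. Of the members not named there, Srebf1 was at -0.38 ± 0.10 (SE) and Acaca, on its brighter probe set, at 0.12 ± 0.10 (SE). Me1, at -0.030 ± 0.061 (SE), and Gpam, at 0.0035 ± 0.096 (SE), differed by less than their SE.

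**Figure D4:**
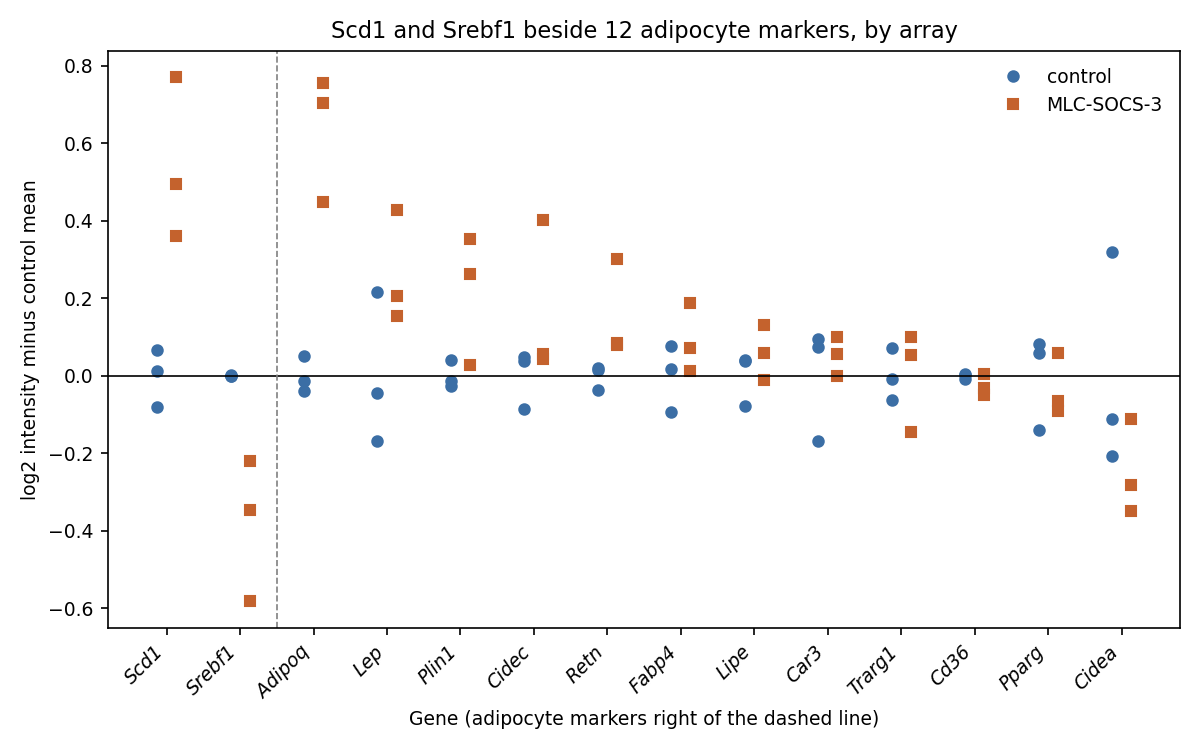
Log2 intensity of Scd1, Srebf1 and 12 adipocyte markers on each array, relative to the gene's control mean, with controls as blue circles and MLC-SOCS-3 arrays as orange squares. Scd1 and Adipoq are higher on all 3 MLC-SOCS-3 arrays, Srebf1 is lower, and most other markers overlap.

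Markers of other cell types were set beside these genes too. All 6 macrophage markers had positive differences, led by Itgam at 0.57 ± 0.11 (SE). Their mean deviation ran from -0.27 to 0.0094 in controls and from -0.096 to 0.26 on the MLC-SOCS-3 arrays, and the groups overlapped. The 6 fibroblast markers were all positive, with a median of 0.13 and deviations from -0.11 to -0.026 in controls and from -0.068 to 0.17 on the MLC-SOCS-3 arrays. The 5 endothelial markers had a median of -0.025. Taken singly, 1 of the 6 macrophage markers (Itgam) and 2 of the 6 fibroblast markers (Pdgfra and Mmp2) had groups without overlap. So had 1 of the 5 endothelial markers (Pecam1), and all of these were higher in MLC-SOCS-3 (4.52% of all genes). Groups without overlap were thus not particular to the fat-cell markers. The part of these cell types in the values of the 36 genes was not tested.

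The spread between arrays of a group was ordinary for this table. The median SD of the 36 genes was 0.082 in controls and 0.11 on the MLC-SOCS-3 arrays, against 0.099 and 0.10 over all genes. After Fads2, the widest were Elovl6 (SD 0.27, n = 3) and Scd2 (SD 0.23, n = 3), both in controls. The mean deviation over all 36 genes was 0.011, -0.040 and -0.021 on the control arrays and 0.017, -0.0014 and 0.034 on the MLC-SOCS-3 arrays. Control replicate 1 lay above MLC-SOCS-3 replicate 2, so the groups overlapped in this mean.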

How the data were processed

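Gene expression was measured on 6 Affymetrix arrays, 3 per group. The authors deposited 1 log2 intensity per probe set and array, and the submitters' processing notes name Affymetrix Expression Console and RMA. Versions and genome build: not given in the sources used here. The RMA method subtracts background, equalises the distributions of arrays and summarises probes, which compresses folds of weak signals. The values were used as deposited. Array medians ran from 5.98 to 6.04, at most 36 values were identical between any pair, and the files hold no detection calls or counts. With 3 arrays per group, their number limits the precision.

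Of 35557 probe sets, a possibly dated platform annotation gives 21789 a single symbol and 1621 several, leaving the rest unnamed here. Symbols were updated through Entrez identifiers (21698 matched).

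All probe sets were fitted with limma 3.58.1 in R 4.3.3 (lmFit, eBayes, two-sided, Benjamini-Hochberg over all probe sets, threshold 0.05), and members were read out of that fit. The scripts were tested on simulated data. Named outside the members were up to 4 genes per list with the smallest p, and any gene described for a count, a shared family or overlap with fat cells was chosen after its value was seen. Array values are given for members with no overlap, an unadjusted p under 0.05 or the highest mean intensity of their step (a choice of what to print, not a comparison of transcript amounts), and for others to show their spread. The members and lists were chosen with earlier results of these data known.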

Additional observations from a re-analysis of the deposited data

How the results depend on the processing

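None of the 36 genes was called by limma in any of the 14 alternatives. Scd1 and Srebf1 kept an unadjusted p under 0.05, no overlap and their sign in all 14. Scd1 lay between 0.43 and 0.63 when 1 array was left out at a time (limma adjusted p 0.68 to 0.97) and between 0.53 and 0.56 otherwise (0.19 to 0.86). Srebf1 lay between -0.46 and -0.28 (0.68 to 0.98) and between -0.40 and -0.36 (0.40 to 0.86). Over all probe sets, 0 to 1 were called with 1 array left out, and 11 in a fit of the annotated ones alone that combined trended and robust variance moderation, which was added after seeing the data. Mvd had an unadjusted p under 0.05 in 2 of the 14, 0.043 in that combined fit and 0.020 without control replicate 1.

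The replicate number as a block changed no call, with 0 probe sets called and 2033 at an unadjusted p under 0.05 against 2105 without it. Deviations of same-numbered arrays correlated at -0.026, -0.018 and -0.043, so the numbers were not taken to pair the samples.

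With 1 array left out, 3 to 6 members lay apart as higher and 1 to 4 as lower, beside 7.91% to 9.74% and 11.4% to 15.7% of all genes, since fewer arrays separate more easily. Centred arrays and a second quantile normalization also set Fads1 apart as higher, beside 6.33% and 4.29% of all genes separated in this direction. The sign of some members turned. Centred arrays gave Thrsp 0.016, Fdps 0.0023 and Srebf2 0.015, a second quantile normalization gave Gpam -0.0070, and the mean of a gene's probe sets gave Acaca -0.015. With 1 array left out, 18 members kept their sign throughout, but 14 of these moved by over 1.5 times, among them Fdft1 from 0.070 to 0.26, Fasn from 0.024 to 0.21, Elovl5 from 0.0063 to 0.17, Insig2 from 0.0017 to 0.12 and Insig1 from -0.15 to -0.00092. The others ranged as follows: Acacb from -0.018 to 0.071, Thrsp from -0.076 to 0.065, Scd2 from -0.21 to 0.017, Fads2 from -0.19 to 0.15, Elovl6 from -0.14 to 0.12, Gpam from -0.067 to 0.067, Agpat2 from -0.019 to 0.19, Lpin1 from -0.030 to 0.074, Dgat1 from -0.026 to 0.089, Dgat2 from -0.042 to 0.15, Hmgcs1 from -0.032 to 0.082, Mvk from -0.052 to 0.0063, Pmvk from -0.18 to 0.0083, Fdps from -0.089 to 0.021, Lss from -0.070 to 0.0030, Dhcr7 from -0.024 to 0.11, Srebf2 from -0.083 to 0.068, Mlxipl from -0.0049 to 0.074. The cause was not tested. With each array centred on its median, 25 of 36 members were positive. Elovl6 and Sqle were not tested among probe sets above the median level.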
